A study of Rattus norvegicus and Mus musculus with 25 samples.

Results

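The genes described here are 10 that set the balance between matrix-cutting enzymes and their inhibitors: the 4 tissue inhibitors Timp1, Timp2, Timp3 and Timp4, the matrix metalloproteinases Mmp2, Mmp3, Mmp9 and Mmp14, and the related proteases Adamts1 and Adamts8. They were taken by symbol from 3 deposited expression tables that together hold 66954 gene names, and all 10 are listed in each table. Timp1 and Mmp3 were chosen by their CPM in cells treated with siRNA against Vldlr, which stood above that in the matching control, so every value of that contrast is described without a test. The other 8 were added as relatives.

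Matrix metalloproteinases are zinc enzymes that cut collagens, fibronectin and other proteins of the extracellular matrix, and most are made as inactive precursors. Timp proteins bind the active site and block it, and Timp2 also takes part in the activation of Mmp2 by the membrane enzyme Mmp14 at the cell surface. Adamts enzymes cut proteoglycans such as versican, a main component of the embryonic and newborn heart matrix, and Timp3 is the inhibitor that also blocks several of them.

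The study measured RNA in 25 libraries of heart muscle cells after changes to Vldlr, a lipoprotein receptor that also binds reelin, to the secreted protein thrombospondin-1 (gene Thbs1), or after addition of Reelin. In rat, 16 libraries came from ventricular cardiomyocytes of 1-day-old SD animals, in 8 groups of 2. Cells received 50 nM si-Vldlr or its si-Control_v for 60 h, 50 nM si-Thbs1 or its si-Control_t for 60 h, Reelin or PBS for 48 h, or a virus for 72 h in the Vldlr OE group. The protocol names AAV9-cTnT-Vldlr, which carries a cardiomyocyte promoter, and AAV9-CMV-GFP, which carries a broadly active one; the counterpart of Vldlr OE is labelled only Control. The 9 mouse libraries were made from day 1 C57BL/6 cardiomyocytes, 3 for each genotype. Myh6-Cre;Vldlr f/f carries Cre under a cardiomyocyte promoter with floxed Vldlr on both chromosomes, in Myh6-Cre;Vldlr f/+ only 1 chromosome is floxed, and Vldlr f/f lacks Cre. No library with Cre and 2 unfloxed Vldlr copies was analysed here. Nothing in the labels says that the libraries of a rat group came from separate cultures or those of a mouse genotype from separate animals, so each p-value is set by how much these libraries vary, and that variation may be technical.

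Levels are in CPM (counts per 1000000, the sum of every column), and group differences were taken after log2(CPM + 1), where changes of low genes come out too small. The targeted genes were at 177 ± 8.38 CPM (SD, n = 2) for Vldlr in si-Vldlr against 255 ± 3.27 CPM in its control, and at 645 ± 141 CPM for Thbs1 in si-Thbs1 against 918 ± 36.3 CPM. Vldlr was at 773 ± 164 CPM in Vldlr OE against 478 ± 140 CPM in Control, and at 78.4 ± 6.90 CPM in Myh6-Cre;Vldlr f/f against 156 ± 43.7 CPM in Vldlr f/f (n = 3). In Myh6-Cre;Vldlr f/+ it was at 104 ± 7.32 CPM (n = 3), overlapping Vldlr f/f. Cardiomyocyte markers (7 of 7 present, among them Myh6, Myh7 and Tnnt2) summed to 18528 to 35888 CPM in rat and 42123 to 53794 CPM in mouse. Fibroblast markers (7 of 7) summed to 17629 to 28258 CPM in rat, mostly Col1a1, and to 1510 to 2485 CPM in mouse. In such bulk samples fewer cells of a type and less RNA per cell cannot be told apart.

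RefSeq promoter sequence on the rat build GRCr8 was at hand for 6 of the 10 genes: Timp1, Timp2, Timp3, Timp4, Mmp3 and Adamts1. The expression tables were made on another build, so these coordinates serve only to place the sequences. The 250 bases before the start of Timp1 (chrX:3771123-3771372, minus strand) and of Mmp3 (chr8:12925031-12925280, plus strand) are shown because these 2 genes stood apart in si-Vldlr. Both are written 5′ to 3′ on the gene's own strand, with capitals for matches on either strand to TGANTCA and TGAGTAA, letters that AP-1 factors bind, and AGGAAG, letters that Ets factors bind.
Timp1: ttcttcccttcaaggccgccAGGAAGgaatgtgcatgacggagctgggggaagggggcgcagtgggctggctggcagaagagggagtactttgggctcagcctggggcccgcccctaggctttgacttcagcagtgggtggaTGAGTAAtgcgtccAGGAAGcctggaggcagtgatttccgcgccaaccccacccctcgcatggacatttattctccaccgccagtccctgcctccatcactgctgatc
Mmp3: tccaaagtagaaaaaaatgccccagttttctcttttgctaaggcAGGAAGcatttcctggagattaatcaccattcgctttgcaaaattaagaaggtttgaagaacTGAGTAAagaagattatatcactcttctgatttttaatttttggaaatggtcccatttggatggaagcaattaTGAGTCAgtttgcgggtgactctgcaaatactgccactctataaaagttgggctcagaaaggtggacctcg
Counted back from the gene start, Timp1 held TGAGTAA at -108 and AGGAAG at -230 and -94. Mmp3 held TGANTCA at -71, TGAGTAA at -144 and AGGAAG at -206. Of 33469 rat promoters of this length, 6.34% held TGANTCA, 2.38% TGAGTAA and 29.5% AGGAAG. Among the other 4 genes with a sequence there was a single match, AGGAAG at -158 of Timp4. TGAGTAA was added after the Timp1 sequence had been read. These matches are letters in a window and say nothing of whether a factor is bound.

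Timp1, the inducible inhibitor of the family, had its highest rat levels in the si-Vldlr libraries. It was at 201.7 and 201.8 CPM in si-Vldlr replicates 1 and 2, and at 117 and 82.8 CPM in si-Control_v replicates 1 and 2. The next highest of the 16 rat libraries was thus a si-Control_v library, and no other treated or control library came near the si-Vldlr pair. The group means were 202 ± 0.105 CPM and 99.9 ± 24.1 CPM (n = 2 each), 2.02 times as high, a log2 difference of 1.03. The spread of the controls was far wider than that of the treated pair, and the log2 difference was 0.78 without si-Control_v replicate 2 and 1.27 without replicate 1.

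Mmp3, stromelysin-1, which cuts proteoglycans and activates other metalloproteinases, was close to the lower end of detection throughout. It was at 2.89 and 2.36 CPM in si-Vldlr replicates 1 and 2 and at 0.697 and 0.526 CPM in si-Control_v replicates 1 and 2. In the other 12 rat libraries it lay between 0.0981 and 0.896 CPM, so only the si-Vldlr libraries exceeded 1 CPM. The means were 2.62 ± 0.370 and 0.611 ± 0.121 CPM, a ratio of 4.29. The log2 difference was 1.17 with a pseudocount of 1 and 1.94 with a pseudocount of 0.1. Mmp3 passed the filter on low values in the larger rat table only through the si-Vldlr libraries.

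**Figure D1:**
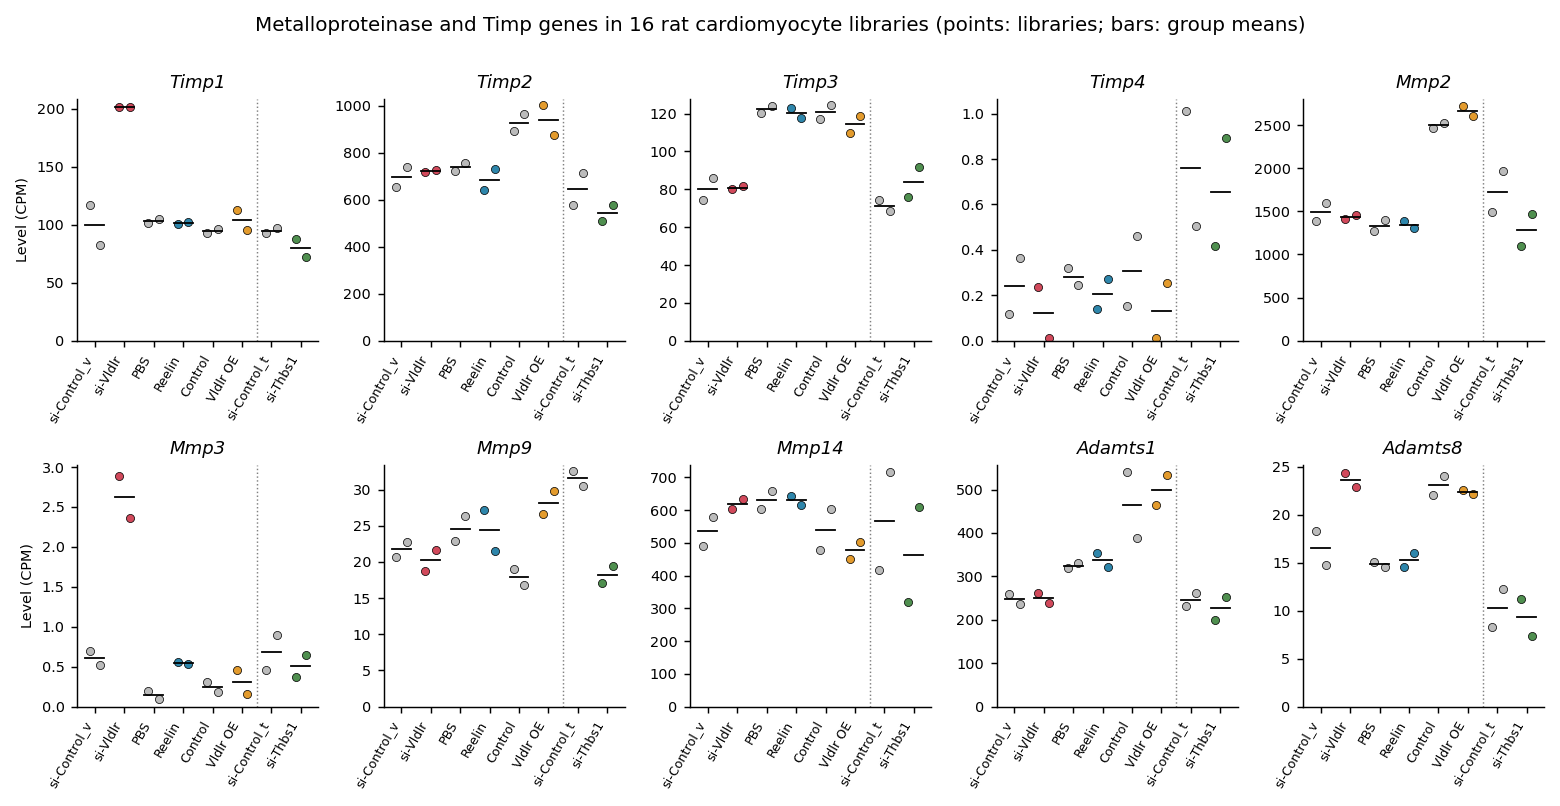
Level of each of the 10 genes in CPM (vertical axes from 0, linear) in the 16 rat libraries, by group; points are libraries, black bars group means of 2, grey points controls, and the dotted line separates the 2 tables. Timp1 at about 201.7 CPM and Mmp3 at 2.36 to 2.89 CPM in si-Vldlr stand above all other libraries, while Mmp2, Timp2 and Adamts1 are high in both the Control and Vldlr OE groups.

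Of the 8 relatives, 2 more lay above both controls in si-Vldlr. Adamts8, a protease of the versican-cutting family, was at 24.3 and 22.9 CPM in si-Vldlr and at 18.3 and 14.8 CPM in si-Control_v replicates 1 and 2, a log2 difference of 0.50. Mmp14, the membrane-bound collagenase, was at 603 and 633 CPM in si-Vldlr and at 492 and 579 CPM in si-Control_v, a log2 difference of 0.21. Adamts8 was as high as this in Control (22.1 and 24.1 CPM) and Vldlr OE (22.5 and 22.2 CPM), and Mmp14 was as high in PBS and Reelin, so neither level was peculiar to si-Vldlr.

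The remaining 5 of the 9 genes that passed the filter overlapped their controls. Timp2, a broadly made inhibitor, was at 720 and 728 CPM in si-Vldlr and at 652 and 740 CPM in si-Control_v. Timp3, an inhibitor held in the matrix, was at 80.1 and 81.8 CPM against 74.2 and 85.9 CPM. Mmp2, gelatinase A, was at 1415 and 1462 CPM against 1387 and 1597 CPM. In each of these 3 the si-Vldlr pair lay between its controls. Mmp9, gelatinase B, was at 18.7 and 21.7 CPM against 20.7 and 22.8 CPM, and Adamts1 at 261 and 238 CPM against 260 and 237 CPM. Timp4, an inhibitor known for its level in the heart, was at 0.0102 to 0.461 CPM over the 12 libraries of the larger rat table and failed the filter.

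Groups that do not overlap were frequent in this comparison. In si-Vldlr against si-Control_v 4 of the 9 genes lay higher without overlap, where 21.1% of the 13860 genes tested did, and 0 lay lower, where 27.4% did (48.5% in either direction). Since 2 of the 4 were picked for this difference, nothing is read from that count. The median log2 difference of the 9 was 0.06 and that of all genes tested -0.02. Over all genes, 4 (0.0289%) had a limma adjusted p under 0.05. Beside these values, smooth muscle markers (5 of 5) summed to 3092 to 3188 CPM in si-Vldlr and 2215 to 2744 CPM in si-Control_v, and epicardial markers (6 of 6) to 132 to 140 against 120 to 122 CPM. Leukocyte markers (7 of 8 present, S100a9 at 0) summed to 484 to 583 against 543 to 946 CPM, and fibroblast markers to 23077 to 24042 against 22196 to 23340 CPM. Cardiomyocyte markers summed to 23673 to 24261 CPM in si-Vldlr and 27044 to 28652 CPM in si-Control_v, lower without overlap. Their part in the Timp1 and Mmp3 levels was not tested.

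Related genes in si-Vldlr are given from 6 lists, without tests. Of 15 activators and other inhibitors, 7 lay higher and 1 lower without overlap, with a median of 0.09. Tfpi2 was at 1.91 ± 0.132 against 1.02 ± 0.302 CPM (log2 difference 0.53) and Cd44, a hyaluronan receptor, at 125 ± 6.47 against 92.7 ± 8.51 CPM (0.43). Of 14 matrix substrates, 10 lay higher and 2 lower, with a median of 0.25. Among these Fn1 (fibronectin) was at 12322 ± 1031 against 9296 ± 785 CPM and Nid1 (nidogen) at 1054 ± 27.5 against 816.5 ± 108 CPM. Eln, which encodes elastin, lay lower at 411 ± 60.5 against 739 ± 204 CPM.

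Of 10 other matrix metalloproteinases that passed the filter, 2 lay higher and 3 lower without overlap, with a median of 0.01. Of those farthest from their controls, Mmp15 was at 78.4 ± 8.74 against 115 ± 25.3 CPM, Mmp11 at 14.2 ± 0.122 against 19.0 ± 1.19 CPM and Mmp7 at 0.506 ± 0.152 against 1.25 ± 0.587 CPM. Of 16 other Adamts proteases, 2 lay higher and 6 lower, with a median of -0.09. Adamts13 was at 0.445 ± 0.297 against 1.37 ± 0.157 CPM, Adamts3 at 5.07 ± 0.375 against 7.51 ± 2.81 CPM and Adamts16 at 1.54 ± 0.0593 against 0.993 ± 0.273 CPM. Of 9 Adam proteases, 3 lay each way, with Adam33 at 51.9 ± 8.16 against 112 ± 11.6 CPM and Adam12 at 101 ± 7.75 against 71.9 ± 28.8 CPM. Of 11 AP-1 and Ets factors, 2 lay higher and 1 lower, with Ets1 at 86.2 ± 3.81 against 61.8 ± 3.46 CPM and Fosl2 at 6.86 ± 0.402 against 5.48 ± 0.460 CPM. Beside the 21.1% and 27.4% of all genes, the matrix substrates had the largest share of higher members of these lists. The lists were chosen with earlier results of these data known, so nothing is read from that share.

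The Reelin comparison asked what a ligand of the receptor did to the same cells, and 8 of the 9 genes that passed the filter overlapped between Reelin and PBS. Timp1 was at 101 and 102 CPM with Reelin and at 102 and 105 CPM with PBS. Mmp9 was at 27.3 and 21.6 CPM against 22.9 and 26.3 CPM, and Adamts1 at 354 and 321 CPM against 318 and 331 CPM. These pairs overlapped. Mmp3 was at 0.555 and 0.534 CPM with Reelin and at 0.196 and 0.0981 CPM with PBS, the only non-overlapping member. Its log2 difference was 0.43 with a pseudocount of 1 and 1.41 with a pseudocount of 0.1, given without a test because Mmp3 entered this table's fit only through the si-Vldlr libraries. All 4 values were under 1 CPM, and both Reelin libraries lay within the 0.526 to 0.697 CPM of the si-Control_v pair.

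Mmp3 was thus the 1 gene of 9 that lay higher without overlap, where 19.7% of all genes did, and 0 lay lower, where 13% did (32.8% in either direction). Of the other 8 genes none passed limma's adjusted test, which 2 of all genes did (0.0144%), and 0 had an unadjusted p under 0.05, against 1.36% of all genes. Their 95% intervals on the log2 scale all included 0 and lay between -0.36, the lower bound of Timp2, and 0.37, the upper bound of Adamts1. Of the 75 related genes tested, none passed and none had an unadjusted p under 0.05. The smallest was that of Adamts17, at 4.59 ± 0.141 against 3.34 ± 0.00531 CPM (limma unadjusted p = 0.0825, adjusted p = 1).

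Overexpression of Vldlr was set against Control. The labels of Control state no virus and no hours, so an effect of the virus cannot be told apart from one of Vldlr. Mmp9 had the clearest difference of the 10 genes here, at 26.6 and 29.9 CPM in Vldlr OE and at 19.1 and 16.9 CPM in the Control columns. The Vldlr OE libraries lay above both Control columns, and replicate 2 was the highest of the 12 libraries of that table. The means were 28.2 ± 2.30 and 17.99 ± 1.56 CPM, a log2 difference of 0.62 ± 0.14 (SE; 95% interval 0.31 to 0.93). It did not pass the test over all genes (limma unadjusted p = 0.00114, adjusted p = 0.958, and 0.125 to 1 over the alternatives). Leukocyte markers summed to 585 to 732 CPM in Vldlr OE and 533 to 831 CPM in Control, and their part in the Mmp9 level was not tested.

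Mmp2 was at 2718 and 2608 CPM in Vldlr OE and 2461 and 2528 CPM in Control, higher without overlap but with a log2 difference of only 0.09 ± 0.11 (SE; limma adjusted p = 0.967). Timp1 was at 112 and 95.4 CPM against 92.8 and 96.6 CPM, Timp2 at 1003 and 877 CPM against 892 and 964 CPM and Timp3 at 110 and 119 CPM against 117 and 125 CPM. The inhibitors thus overlapped. Mmp14 was at 450 and 504 CPM against 477 and 604 CPM, Adamts1 at 465 and 534 CPM against 540 and 388 CPM, and Mmp3 at 0.453 and 0.152 CPM against 0.305 and 0.179 CPM. In all, 2 of 9 genes lay higher without overlap, where 9.54% of all genes did, and 0 lay lower, where 15.5% did (25% in either direction). Mmp3, 1 of the 9, entered this fit only through the si-Vldlr libraries and is given without a test. None of the others passed limma's adjusted test, which 1 gene of 13860 did (0.00722%). Of them only Mmp9 had an unadjusted p under 0.05, against 4.52% of all genes. The 2 Control libraries were assigned by elimination, since their columns are named Blank, and this bears on each value of the comparison.

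Among the related genes in Vldlr OE, 3 had an unadjusted limma p under 0.05 and none passed. They were A2m, a broad protease trap, at 4.18 ± 3.34 against 7.67 ± 0.519 CPM (unadjusted p = 0.0392), Mmp19 at 56.4 ± 0.287 against 48.7 ± 3.05 CPM (0.0420) and Adamts3 at 4.98 ± 0.0956 against 7.22 ± 0.469 CPM (0.0433), each with a limma adjusted p of 0.958. Of 16 other Adamts proteases 3 had a positive and 13 a negative difference, with a median of -0.15. Over all genes 42.7% had a positive difference, with a median of -0.03.

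**Figure D2:**
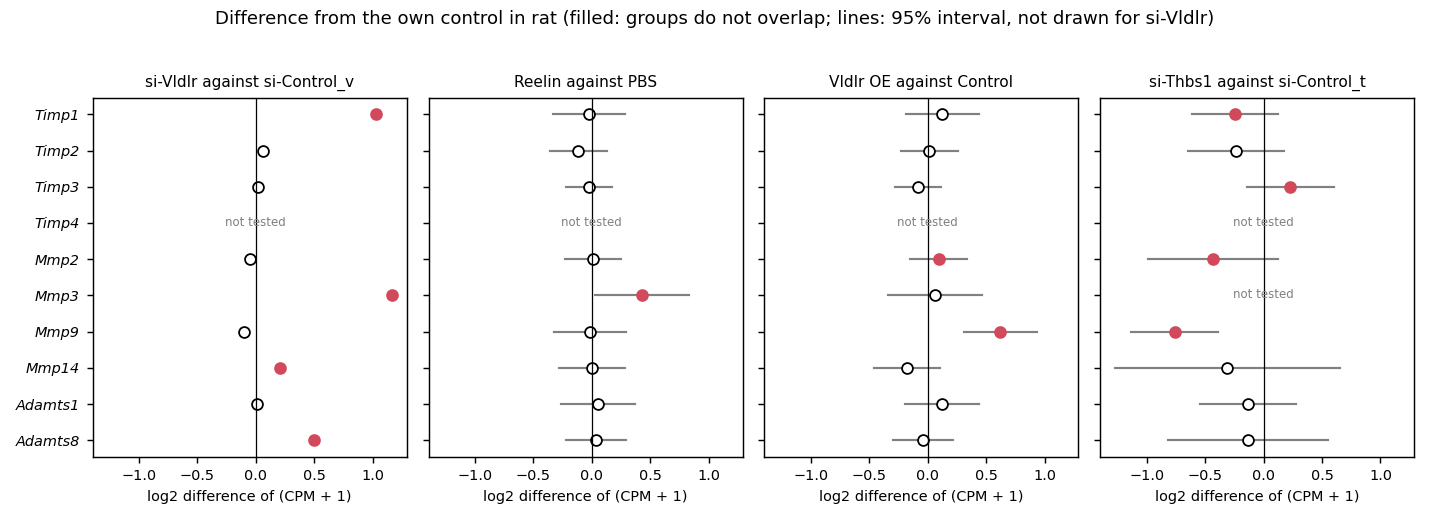
Log2 difference in CPM + 1 of each gene from its own control (horizontal axis) in the 4 rat comparisons; filled points are genes whose groups of 2 do not overlap, and grey lines are 95% intervals, left out for si-Vldlr. The intervals drawn for Mmp3 in Reelin and Vldlr OE are not to be read as tests, since Mmp3 passed the filter only through the si-Vldlr libraries. Timp1 at 1.03 and Mmp3 at 1.17 in si-Vldlr, and Mmp9 at 0.62 in Vldlr OE and -0.76 in si-Thbs1, lie farthest from 0.

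Knockdown of Thbs1 was measured in a table of its own, in which 8 of the 10 genes passed the filter. Mmp9 was at 17.1 and 19.4 CPM in si-Thbs1 and at 32.6 and 30.5 CPM in si-Control_t. Both si-Thbs1 libraries lay well below both controls. The means were 18.2 ± 1.65 and 31.6 ± 1.51 CPM, a log2 difference of -0.76 ± 0.15 (SE; 95% interval -1.14 to -0.39). After adjustment over all genes it missed the threshold (limma unadjusted p = 0.00289, adjusted p = 0.471, and 0.0658 to 0.855 over the alternatives). Leukocyte markers summed to 517 to 589 CPM in si-Thbs1 and 585 to 625 CPM in si-Control_t, and epicardial markers to 111.9 to 112.2 against 132 to 136 CPM. Their part in the Mmp9 level was not tested.

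Timp1 and Mmp2 also lay below both controls. Timp1 was at 88.0 and 72.6 CPM in si-Thbs1 and at 92.6 and 96.9 CPM in si-Control_t, a log2 difference of -0.24 ± 0.15 (SE). Mmp2 was at 1099 and 1463 CPM against 1486 and 1971 CPM, a difference of -0.43 ± 0.22. Timp3 went the other way, at 76.2 and 91.8 CPM against 74.3 and 68.3 CPM, a difference of 0.23 ± 0.15. Their limma adjusted p was 1.00 in each case, so none of these separations passed the test.

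The other genes of the si-Thbs1 table overlapped between groups. Timp2 was at 510 and 578 CPM against 577 and 712 CPM. Mmp14 was at 320 and 608 CPM against 416 and 718 CPM, and in both groups replicate 2 was the higher. Adamts1 was at 200 and 253 CPM against 232 and 261 CPM, and Adamts8 at 11.2 and 7.39 CPM against 8.33 and 12.2 CPM. Within each replicate number, Timp2, Mmp14 and Adamts1 were lower in si-Thbs1, but Adamts8 only in replicate 2. Same-numbered libraries deviated together (correlation of deviations 0.41), though the labels do not pair them. The errors and overlaps given for si-Thbs1 are unpaired and include any variation shared within a number. Timp4 at 0.416 to 1.01 CPM and Mmp3 at 0.375 to 0.896 CPM failed the filter.

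Of the 8 genes tested in si-Thbs1, 7 had a negative difference, with a median of -0.24. Over all genes tested 58.4% had a positive difference, with a median of 0.03. Without overlap 3 lay lower, where 10.8% of the 13416 genes did, and 1 lay higher, where 18.5% did (29.3% in either direction). None passed limma's adjusted test, which 6 genes did (0.0447%), and 1 of the 8 had an unadjusted p under 0.05, against 5.52% of all genes. Of the 71 related genes tested, none passed and 5 had an unadjusted p under 0.05. Acan (aggrecan), a substrate of Adamts enzymes, was at 7.47 ± 0.362 against 3.22 ± 0.107 CPM (limma unadjusted p = 0.00159, adjusted p = 0.471). Pcsk5, a convertase that activates secreted precursors, was at 28.1 ± 1.60 against 38.8 ± 2.50 CPM (limma adjusted p = 0.678), Etv4 at 38.1 ± 8.15 against 26.2 ± 1.75 CPM (0.853) and Eln at 1078 ± 46.4 against 842 ± 50.3 CPM (0.895), and the fifth was the targeted Thbs1.

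Several members also differed in level among the control groups of the larger rat table. Mmp2 was at 2461 to 2718 CPM in Control and Vldlr OE and at 1272 to 1597 CPM in the 8 other libraries, with no overlap. Adamts1 was at 388 to 540 CPM in Control and Vldlr OE, 318 to 354 CPM in PBS and Reelin and 237 to 261 CPM in si-Control_v and si-Vldlr. Timp3 was at 74.2 to 85.9 CPM in the siRNA libraries and at 110 to 125 CPM in the 8 others. Timp2 was at 877 to 1003 CPM in Control and Vldlr OE and at 639 to 757 CPM elsewhere. These sets differ in agent, hours of treatment and possibly in culture, which cannot be told apart.

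The ratio of Mmp2 to Timp2 within a library, followed the same sets. It was 2.62 to 2.76 in Control and 2.71 to 2.98 in Vldlr OE, but 1.76 to 1.84 in PBS and 1.79 to 2.16 in Reelin. In si-Vldlr it was 1.97 to 2.01 against 2.13 to 2.16 in si-Control_v, and in si-Thbs1 2.15 to 2.53 against 2.57 to 2.77 in si-Control_t, neither pair overlapping. The ratio of Mmp14 to Timp2 went the other way in si-Vldlr, at 0.8385 to 0.8686 against 0.7535 to 0.7828 in si-Control_v, also without overlap. In si-Thbs1 it overlapped, at 0.6264 to 1.051 against 0.7201 to 1.009 in si-Control_t. The ratio of Mmp9 to Timp1 was 0.0930 to 0.107 in si-Vldlr and 0.177 to 0.276 in si-Control_v, a difference that the Timp1 level sets. These ratios were chosen after the levels were seen and were not tested.

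In mouse the genes can be compared with one another, since exon lengths are known on GRCm38 from GENCODE M21. Timp1 lies at chrX:20870166-20874735 (plus strand), Timp2 at chr11:118301069-118355740 (minus), Timp3 at chr10:86300372-86349506 (plus) and Timp4 at chr6:115241892-115252205 (minus). Mmp2 lies at chr8:92827291-92853420, Mmp3 at chr9:7445822-7455975, Mmp9 at chr2:164940780-164955850 and Mmp14 at chr14:54431612-54445364, all on the plus strand. Adamts1 lies at chr16:85793827-85803113 (minus) and Adamts8 at chr9:30942562-30963838 (plus). All are protein-coding genes, and the values count whole genes, not single exons.

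3 of the inhibitors sit inside synapsin genes on the opposite strand: Timp1 in Syn1, Timp3 in Syn3 and Timp4 in Syn2. Timp3 shares 1733 exon bases with Syn3 and Timp4 shares 90 with Syn2, while Timp1 shares 0 with Syn1. Adamts8 shares 489 with an antisense gene, and Timp2 contains Cep295nl with 0 shared exon bases. The sources used here do not give whether the counting used strand, so reads of the shared parts cannot be assigned. The synapsin genes were low, with Syn1 at 0.0908 to 0.646 CPM, Syn3 at 0.106 to 0.715 CPM and Syn2 at 1.203 to 3.48 CPM over the 9 libraries.

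Per kilobase of exon, the median levels over the 9 mouse libraries ran from Timp2 (46.0 CPM per kb, range 29.9 to 58.1) and Mmp2 (42.8, range 27.6 to 57.7) through Timp3 (27.6, range 17.2 to 83.7), Mmp14 (17.1, range 6.82 to 19.9), Timp1 (15.0, range 8.95 to 19.3) and Adamts1 (10.9, range 7.10 to 24.0). Adamts8 (4.09, range 2.58 to 5.97) and Timp4 (3.96, range 1.29 to 7.52) followed. Mmp9 was at 0.342 (range 0.127 to 0.798) and Mmp3 at 0.0320 (range 0 to 0.249). Neighbours from Timp2 to Adamts1 overlap in range, as do Adamts8 and Timp4. Adamts1 lies above Adamts8 in range, and Timp4 lies above Mmp9, with no overlap.

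**Figure D3:**
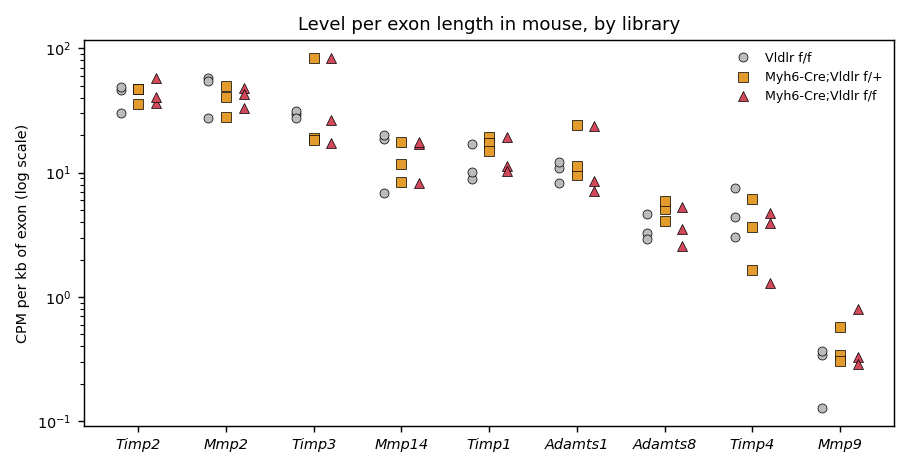
Level per kilobase of exon (vertical axis, log scale) of 9 of the 10 genes in the 9 mouse libraries, in falling order of their median; marker shape and colour give the genotype, and Mmp3 is left out because it is listed at 0 in 4 libraries. Timp2 and Mmp2 lead with medians of 46.0 and 42.8 CPM per kb, and a pair of Timp3 libraries reaches over 83 CPM per kb.

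The mouse genotypes with floxed Vldlr, with and without Cre, were described by 3 comparisons, which share libraries and are given side by side. Timp3 had the widest spread. It was at 155, 150 and 682 CPM in Myh6-Cre;Vldlr f/+ replicates 1, 2 and 3, at 140, 215 and 680 CPM in Myh6-Cre;Vldlr f/f, and at 243, 256 and 225 CPM in Vldlr f/f. Thus replicate 3 of each Cre genotype was high, the other 4 Cre libraries lay below all 3 Vldlr f/f libraries, and both Cre groups surrounded the group without Cre.

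Adamts1 followed the same libraries. It was at 50.9, 59.5 and 127 CPM in Myh6-Cre;Vldlr f/+, at 37.7, 45.3 and 125 CPM in Myh6-Cre;Vldlr f/f and at 57.9, 43.5 and 65.1 CPM in Vldlr f/f. The 2 libraries high in Timp3 were those high in Adamts1. Epicardial markers in them (Myh6-Cre;Vldlr f/+ and f/f replicate 3) summed to 109 and 328 CPM, and leukocyte markers to 65.2 and 119 CPM, against 61.7 to 440 and 65.2 to 140 CPM over all 9 libraries. The pair thus lay at different places in those ranges. Cardiomyocyte markers in this pair summed to 51325 and 42123 CPM (42123 to 53794 over all 9 libraries) and fibroblast markers to 1850 and 1756 CPM (1510 to 2485). Smooth muscle markers summed to 1375 and 919.5 CPM (648 to 1375). Endothelial markers summed to 871 and 949 CPM (710 to 1012) and erythroid markers to 3657 and 4877 CPM (2161 to 5195). Their part in the Timp3 and Adamts1 levels was not tested.

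The differences of Timp3 were small beside their error in a fit that does not pair libraries. Its log2 difference was 0.19 ± 0.64 (SE) for Myh6-Cre;Vldlr f/f set against Vldlr f/f, 0.06 ± 0.64 for Myh6-Cre;Vldlr f/+ set against Vldlr f/f, and was 0.12 ± 0.64 when the Cre genotypes were compared. Without both high libraries the first became -0.47 and the second -0.65, in the opposite direction. These libraries were left out for their high Timp3, so the turn was set by that choice and is not a test. Adamts1 was at 0.13 ± 0.46, 0.41 ± 0.46 and -0.28 ± 0.46 in the same order, and the first became -0.40 without them. These errors are unpaired as well. Same-numbered libraries of the Cre genotypes deviated together, so the errors between those genotypes include variation shared within a pair.

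**Figure D4:**
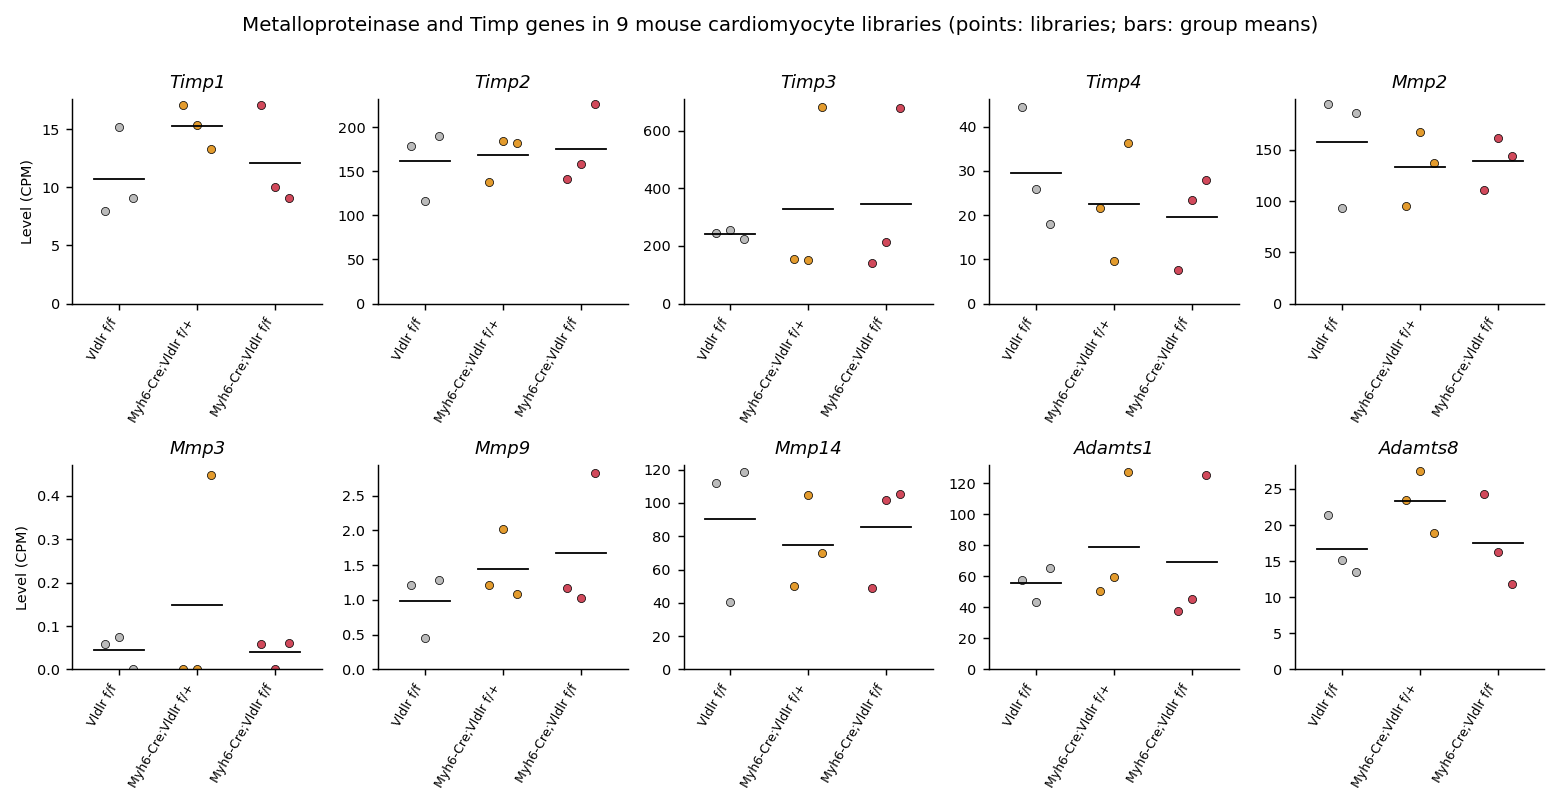
Level of each of the 10 genes in CPM (vertical axes from 0, linear) in the 9 mouse libraries by genotype; points are libraries in replicate order and black bars are means of 3. Timp3 near 680 CPM and Adamts1 near 125 CPM mark replicate 3 of both Cre genotypes, and the 3 genotypes overlap in every panel.

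Timp1 was lower in these mouse libraries than the more abundant inhibitors and varied within genotypes. It was at 17.1, 15.3 and 13.3 CPM in Myh6-Cre;Vldlr f/+, at 17.1, 10.0 and 9.10 CPM in Myh6-Cre;Vldlr f/f and at 7.94, 15.2 and 9.06 CPM in Vldlr f/f. The 3 genotypes overlapped. Relative to Vldlr f/f, its log2 difference was 0.16 ± 0.31 (SE) in Myh6-Cre;Vldlr f/f and 0.51 ± 0.31 in Myh6-Cre;Vldlr f/+, with limma adjusted p of 0.997 and 0.999. The 95% interval of the first ran from -0.53 to 0.85.

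Timp4, at most 1.01 CPM in rat, was higher in every mouse library. The rat and mouse libraries differ in species, genome build and fibroblast marker sums, which cannot be told apart, and rat exon lengths were not at hand. In mouse Timp4 was at 21.6, 9.66 and 36.2 CPM in Myh6-Cre;Vldlr f/+, at 7.63, 23.3 and 27.9 CPM in Myh6-Cre;Vldlr f/f and at 44.3, 25.9 and 18.02 CPM in Vldlr f/f. No genotype stood apart, and the log2 difference of Myh6-Cre;Vldlr f/f from Vldlr f/f was -0.64 ± 0.56 (SE; limma adjusted p = 0.997). Timp2 was at 138, 185 and 182 CPM, at 141, 159 and 226 CPM, and at 179, 117 and 190 CPM in the same order of genotypes, again with overlap.

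Mmp2, Mmp9 and Mmp14 shared a low library with the inhibitor Timp2. In Myh6-Cre;Vldlr f/+, Myh6-Cre;Vldlr f/f and Vldlr f/f, each in replicates 1, 2 and 3, Mmp14 was at 50.1, 105 and 69.9 CPM, at 49.1, 102 and 106 CPM and at 112, 40.6 and 119 CPM. Mmp2 was at 94.9, 167 and 137 CPM, at 111, 162 and 144 CPM and at 194, 92.9 and 186 CPM. For both genes Vldlr f/f replicate 2 was the lowest of 9, and replicate 1 of each Cre genotype was low as well. Mmp9 was at 1.21, 2.02 and 1.08 CPM, at 1.17, 1.02 and 2.82 CPM and at 1.21, 0.450 and 1.29 CPM. Its lowest library was the same, as was that of Timp2, at 117 CPM. Mmp3 was listed at 0 in 4 libraries and at most 0.449 CPM in the rest, and failed the filter. Adamts8 was at 23.4, 27.5 and 18.9 CPM, at 24.3, 16.3 and 11.9 CPM and at 21.4, 15.1 and 13.5 CPM, with overlap.

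Of the 9 genes tested in mouse, 0 lay higher or lower without overlap in any of the 3 comparisons. The shares over 14922 genes were 1.72% higher and 6.81% lower for Myh6-Cre;Vldlr f/f set against Vldlr f/f, then 2.2% higher and 3.77% lower for Myh6-Cre;Vldlr f/+ set against Vldlr f/f, and finally 0.677% higher and 1.82% lower between the Cre genotypes. In either direction they were 8.52%, 5.97% and 2.49%. None of the 9 passed, and 0 had an unadjusted p under 0.05, with limma or with edgeR. Neither tool called any gene (0% with limma), while limma had 453 (3.04%), 362 (2.43%) and 138 (0.925%) genes and edgeR 344, 349 and 140 genes at an unadjusted p under 0.05. The medians of the 9 genes were 0.12, 0.08 and 0.04, against -0.11, -0.06 and -0.06 over all genes. Rescaling by the median ratio moved the first of the latter by 0.11, and under it the Mmp2 and Mmp14 differences from Vldlr f/f turned from -0.12 to 0.0012 and from -0.01 to 0.11.

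No related gene passed in mouse either, of 73 tested, and none had an unadjusted p under 0.05. Of 14 other Adamts proteases, 13 had a negative difference in Myh6-Cre;Vldlr f/f set against Vldlr f/f, with a median of -0.36, and 10 in Myh6-Cre;Vldlr f/+ set against Vldlr f/f, with a median of -0.14. Most genes were negative too: 9867 of all 14922 in the first comparison, with a median of -0.11, and 8704 in the second, with a median of -0.06. Adamts7 had the smallest p of these Adamts proteases in the first (limma unadjusted p = 0.0768, adjusted p = 0.997), and Adamts3 was at 3.15 ± 0.256 against 4.70 ± 0.837 CPM without overlap. Adam17, which sheds membrane proteins and is blocked by Timp3, was at 28.7 ± 1.07 against 36.6 ± 3.28 CPM, also without overlap (limma unadjusted p = 0.128, adjusted p = 0.997). Fos, a subunit of AP-1, had the smallest p of all, at 36.1 ± 35.6 CPM in Myh6-Cre;Vldlr f/+ and 8.77 ± 11.6 CPM in Vldlr f/f (limma unadjusted p = 0.0545, adjusted p = 0.999). Reck, a membrane inhibitor of metalloproteinases, was at 17.7 ± 0.181 CPM in Myh6-Cre;Vldlr f/+, above both 14.1 ± 1.69 CPM in Vldlr f/f and 15.6 ± 0.573 CPM in Myh6-Cre;Vldlr f/f without overlap (limma unadjusted p = 0.148 and 0.422).

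Genes whose pattern was most like that of a member were found by the root mean square difference of log2 levels after each gene's mean was removed. Genes averaging 5 CPM or more were searched, without predicted or clone identifiers. This was done for members that spanned more than 1 on the log2 scale. Profiles share libraries and their scaling, and the distances are a description. The rat profiles of Timp1 and Mmp3 were highest in the si-Vldlr pair by which both were chosen, so nothing more is read from their neighbours. Over the 12 libraries of the larger rat table the closest to Timp1 were Casp12 (0.18), Mme (0.19), which encodes the metalloprotease neprilysin, and Tmem176a (0.24), and to Mmp3 Psmb10 (0.24), Tor3a (0.25) and Tmcc3 (0.26). For Mmp2 they were Bmp3 (0.12), Slc27a3 (0.13) and Jam3 (0.13), and for Adamts1 Scara5 (0.09), Filip1l (0.11) and Mark1 (0.11). Over the 9 mouse libraries Glul (0.22), Sesn1 (0.23) and Proser2 (0.24) were closest to Timp3, Hif3a (0.28), Gria1 (0.31) and Rbm33 (0.39) to Timp4, and Atg101 (0.18), Otud1 (0.18) and Trim23 (0.18) to Adamts1. Mouse Timp1 was nearest to Uqcrq (0.11), Minos1 (0.12) and Uqcc2 (0.12), and Mmp14 to Dock1 (0.10), Itga9 (0.11) and Ccdc91 (0.13).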

How the data were processed

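The authors deposited CPM values per gene, in which every column sums to 1000000. Per the submitters' processing notes, the tools were HISAT2 2.1.0, StringTie 1.3.4 and edgeR 3.20.9 on rn6 and mm10, with no roles given. The sequence depth in reads is not known. Mouse values above 0 were whole multiples of a step (100% within 0.05 steps; 66081626 to 78362841 steps per library), but a step may be less than a read, so edgeR 4.0.16 on the steps was only an alternative, added after seeing the data. It called 0 genes in each mouse comparison. Columns of 23 libraries matched labels by name; the 2 named Blank were assigned to Control by elimination. The 4 rows of repeated names per table were left out.

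Differences were tested with limma 3.58.1 (R 4.3.3; trend on log2(CPM + 1), all groups of a table in 1 fit), for genes with at least 1 CPM in 2 rat or 3 mouse libraries, with Benjamini-Hochberg adjustment over all genes and calls at 0.05. The code was tested on simulated data. Promoters and motif matches were read with Python 3.11.15. Named genes are the 10 members, the targeted genes, the list members with the smallest p (for si-Vldlr, the largest difference without overlap) and the closest patterns; 1 list member that this rule names is not reported here. The members and lists were chosen with earlier results of these data known. Alternatives were another pseudocount, no filter, rescaling, the compared groups alone, the replicate block and leaving out each library. In mouse, same-numbered libraries of the 2 Cre genotypes deviated together (correlations of deviations 0.46, 0.44 and 0.33), so the numbers were taken to pair them, from the data and not the labels; against Vldlr f/f they did not.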

Additional observations from a re-analysis of the deposited data

How the results depend on the processing

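Leaving aside si-Vldlr, whose values are described without a test, no member passed under any alternative run. Of 568 member values in the other comparisons 498 kept their direction and 70 turned. Among the 498 are values with no filter, the compared groups alone or the replicate block, settings that left each log2 difference unchanged. Their direction was fixed in advance, so the 498 does not measure stability. The 568 values include Mmp3 for Reelin and Vldlr OE, which entered the fit only through the si-Vldlr libraries and is not read as tested. Counts of genes called moved more. With the compared groups alone there were 8 in si-Vldlr, 13 in Reelin, 8 in Vldlr OE and 1 in Myh6-Cre;Vldlr f/f set against Vldlr f/f. With no filter on low values they were 4 for Vldlr OE and 0 for si-Thbs1. The replicate block gave 43 for si-Thbs1 in place of 6, 27 of them higher. It gave 5 for si-Vldlr in place of 4, left the counts of 2 for Reelin and 0 for each mouse comparison, and changed the call of no tested member. A block could not be fitted for Vldlr OE, whose control columns carry no replicate number. In rat 2 pairs share only a number (correlation of deviations 0.16, -0.06 and 0.41 for si-Vldlr, Reelin and si-Thbs1). Leaving out 1 library gave 4 to 167 genes for si-Vldlr (167 without si-Control_v replicate 1), 5 to 10 for Reelin, 2 to 257 for Vldlr OE (257 without Vldlr OE replicate 2) and 14 to 185 for si-Thbs1 (185 without si-Control_t replicate 1), with the lone library assumed to vary like the other groups. In mouse it gave 0 to 1, 0 to 1 and 0 to 0. The cause of these moves was not tested.

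Rescaling by the median ratio turned Mmp2 to -0.0083 for Reelin and, for Myh6-Cre;Vldlr f/f set against Vldlr f/f, Mmp2 to 0.0012 and Mmp14 to 0.11, and edgeR gave 0.069 for the last. Without both libraries high in Timp3, an alternative chosen after seeing the data, the log2 differences against Vldlr f/f became -0.078 for Timp2, -0.47 for Timp3 and -0.40 for Adamts1 in Myh6-Cre;Vldlr f/f and -0.65 for Timp3 in Myh6-Cre;Vldlr f/+. Between the Cre genotypes they became -0.092 for Timp2, -0.30 for Mmp9 and -0.035 for Mmp14. Leaving out 1 library at a time turned the sign of further members. In si-Vldlr the ranges that crossed 0 were Timp2 -0.031 to 0.15, Timp3 -0.085 to 0.12, Mmp2 -0.15 to 0.052 and Adamts1 -0.061 to 0.075. For Reelin the ranges were Timp1 -0.043 to 0.00084, Timp3 -0.052 to 0.0066, Mmp2 -0.053 to 0.080, Mmp9 -0.18 to 0.14, Mmp14 -0.061 to 0.059, Adamts1 -0.015 to 0.12 and Adamts8 -0.030 to 0.10. For Vldlr OE the ranges were Timp2 -0.081 to 0.11, Mmp3 -0.11 to 0.23, Adamts1 -0.11 to 0.36 and Adamts8 -0.10 to 0.018. For si-Thbs1 the ranges were Mmp14 -0.77 to 0.15, Adamts1 -0.30 to 0.041 and Adamts8 -0.40 to 0.14. For Myh6-Cre;Vldlr f/f set against Vldlr f/f the ranges were Timp1 -0.10 to 0.41, Timp2 -0.10 to 0.26, Timp3 -0.47 to 0.66, Mmp2 -0.46 to 0.065, Mmp14 -0.51 to 0.34, Adamts1 -0.40 to 0.45 and Adamts8 -0.22 to 0.27. For Myh6-Cre;Vldlr f/+ set against Vldlr f/f the ranges were Timp2 -0.14 to 0.21, Timp3 -0.65 to 0.43, Timp4 -0.88 to 0.024, Mmp2 -0.55 to 0.018 and Mmp14 -0.68 to 0.082. Between the Cre genotypes the ranges were Timp2 -0.15 to 0.18, Timp3 -0.53 to 0.84, Timp4 -0.67 to 0.35, Mmp2 -0.14 to 0.27, Mmp9 -0.20 to 0.26, Mmp14 -0.080 to 0.53 and Adamts1 -0.80 to 0.12.

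The depth in reads is unknown, so the error of Mmp3 and rat Timp4, both mostly under 1 CPM, has no counting interval.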
